A study of Mus musculus with 7 samples.

Results

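The amyloid precursor protein gene App, its paralogs Aplp1 and Aplp2, and genes whose products cut or bind these proteins were compared between adult and embryonic mouse cerebral cortex. The set held 8 genes, App, Aplp1, Aplp2, Adam10, Bace1, Psen2, Ncstn and Apbb1, taken by exact symbol from the 36666 rows of the gene table, and the 102 of 86425 rows of the exon table that carry these symbols. Cortex of C57BL/6 mice was collected from young adults (3 samples) and from embryos at embryonic day 17 (E17, 4 samples), with no allele or treatment named in the labels for either stage. Libraries made from mRNA were sequenced, and each sample held 18444272 to 23606525 reads in genes. Whether each sample came from a separate animal is not stated, and the p-values given here therefore cover only the spread among these samples.

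APP is a membrane protein of neurons and other cells with roles in neurite growth, cell adhesion and synapses. Its large outer part is released by an alpha-secretase, mainly ADAM10 in neurons, or by the beta-secretase BACE1, and the remaining stub is cut within the membrane by gamma-secretase, a complex of a presenilin, nicastrin, APH1 and PEN2. Cutting by BACE1 and then gamma-secretase yields the amyloid-beta peptide, which accumulates in Alzheimer disease. APLP1 and APLP2 are cut by the same classes of enzymes but lack the amyloid-beta sequence. The precursors also differ by splicing: a cassette exon encodes a Kunitz-type protease inhibitor domain in App and in Aplp2, and short exons near the membrane are included or left out.

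The 6 alternative exons on which the exon comparisons turn are given here from GENCODE M21 transcripts on GRCm38, 5′ to 3′ on the minus strand. They lie at chr16:85043576-85043743 (App exon 7, Kunitz domain, 168 bases), chr16:85040251-85040307 (App exon 8, the OX2 exon, 57 bases), chr16:84971408-84971461 (App exon 15, 54 bases), chr9:31167561-31167728 (Aplp2 exon 7, Kunitz domain, 168 bases), chr9:31156190-31156225 (Aplp2 exon 13, 36 bases, as numbered in the transcript without the Kunitz exon) and chr7:30436179-30436202 (Aplp1 exon 13, 24 bases). Each is wholly coding and a multiple of 3 bases long, so its omission keeps the reading frame. In the 2 Kunitz exons, capitals mark the positions at which they are identical, which are 114 of 168 positions (67.9%), and the 4 other exons carry no capitals.
App exon 7: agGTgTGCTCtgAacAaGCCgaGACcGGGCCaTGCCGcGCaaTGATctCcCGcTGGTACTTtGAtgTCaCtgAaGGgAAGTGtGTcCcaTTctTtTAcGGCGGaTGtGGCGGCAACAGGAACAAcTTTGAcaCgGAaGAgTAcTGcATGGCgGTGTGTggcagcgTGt
Aplp2 exon 7: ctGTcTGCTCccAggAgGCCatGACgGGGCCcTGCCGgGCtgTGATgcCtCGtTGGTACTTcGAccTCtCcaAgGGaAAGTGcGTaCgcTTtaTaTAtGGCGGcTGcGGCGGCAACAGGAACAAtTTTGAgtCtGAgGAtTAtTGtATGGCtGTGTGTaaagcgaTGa
App exon 8: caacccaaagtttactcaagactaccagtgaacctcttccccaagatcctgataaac
App exon 15: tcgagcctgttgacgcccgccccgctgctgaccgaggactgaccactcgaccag
Aplp2 exon 13: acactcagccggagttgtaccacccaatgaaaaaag
Aplp1 exon 13: atcccccagtgacccttccaaaag

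The 3 precursor genes were all higher in adult cortex, while the genes of the cutting enzymes among the 8, Adam10, Bace1, Psen2 and Ncstn, differed by less than 1 on the log2-like scale, in either direction. Of the 8 genes, 7 passed the threshold in limma (adjusted p below 0.05 over all 22828 genes tested), 5 of them higher and 2 lower in adult. The background was high: 69.7% of all genes tested were called, 35.8% higher and 33.9% lower, so that the count of calls alone says little about these genes and the sizes carry the comparison. The groups did not overlap for 6 of the 8 genes, against 68.9% of all genes tested. Levels are reads per 1000000 reads in genes (CPM). Differences are adult minus embryonic means of the deposited log2-like values, which follow log2 for well expressed genes. The sample scaling in these values is the authors' own, so a CPM ratio and a difference can depart slightly from each other.

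App (chromosome 16, 84949685 to 85173766, minus strand, GRCm38) had 1856, 2032 and 1915 CPM in the 3 adult samples, against 452, 464, 486 and 455 CPM in the 4 embryonic samples. Every adult value was far above every embryonic one. The means were 1934 ± 89.6 CPM in adult and 464 ± 15.4 CPM in embryonic cortex (SD, n = 3 and n = 4), a ratio of 4.16, and the difference was 2.14 (SE 0.07, adjusted p = 8.09e-12 in limma). Of the 8 genes App had the highest ratio.

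Aplp2, the paralog expressed in many tissues (chromosome 9, 31149557 to 31211815, minus strand), had 591, 596 and 601 CPM in adult samples, against 185, 188, 206.1 and 188 CPM in embryonic samples. The adult samples were almost identical, and the ratio of means was 3.11 (difference 1.72, SE 0.07, adjusted p = 5.57e-11 in limma). Aplp1, the paralog found mainly in neurons (chromosome 7, 30434982 to 30445535, minus strand), had 1058, 1152 and 1019 CPM in adult samples, against 487, 481, 525 and 457 CPM in embryonic samples. It rose as well, by less than its paralogs, with a ratio of 2.21 (difference 1.23, SE 0.08, adjusted p = 5.68e-09 in limma).

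Because the paralogs rose by different amounts, the balance among them differed between the stages. App had 1.80 ± 0.0699 reads per Aplp1 read in adult and 0.954 ± 0.0340 in embryonic cortex. It had 3.25 ± 0.144 reads per Aplp2 read in adult and 2.42 ± 0.0471 in embryonic cortex, and Aplp2 had 0.555 ± 0.0363 reads per Aplp1 read in adult and 0.394 ± 0.0134 in embryonic cortex. In each of these ratios all 3 adult samples lay above all 4 embryonic samples. The exact two-sided permutation p was 0.0286 for each, the smallest that the 35 splits of 3 against 4 samples allow, and 0.0357 after adjustment over the 5 read ratios compared. Gene length is shared by both stages and drops out of such a comparison of ratios.

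**Figure D1:**
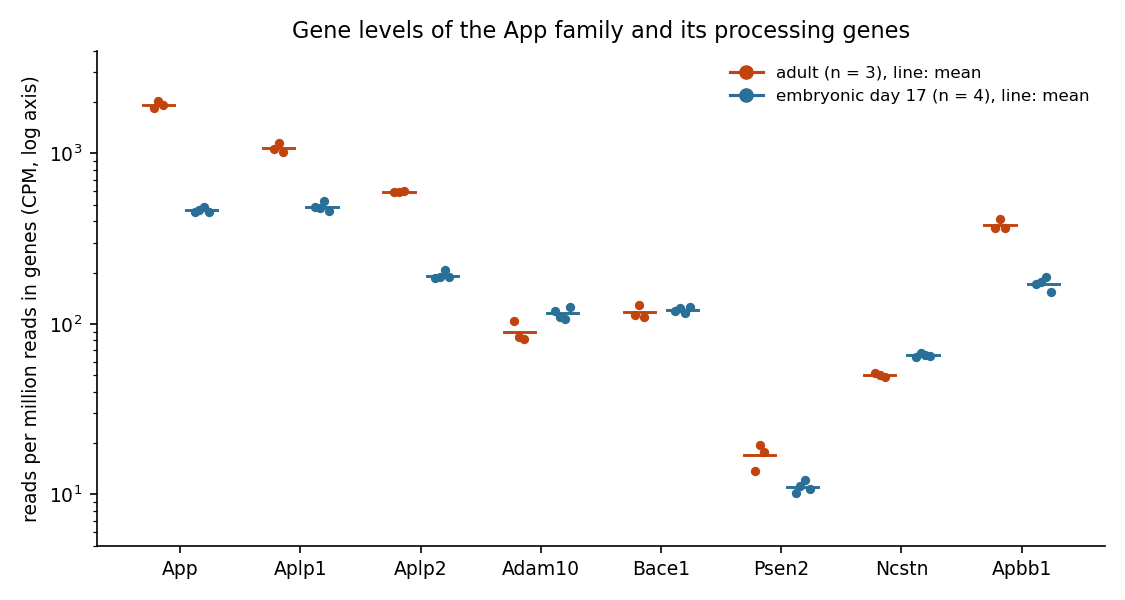
Level of each of the 8 genes in every sample, in CPM on a log axis, with adult samples on the left of each pair and embryonic samples on the right, and a line at each group mean. App, Aplp1, Aplp2 and Apbb1 stand well apart between the stages, Bace1 overlaps, and Adam10 and Ncstn lie slightly lower in adult.

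Adam10 and Bace1, of the alpha- and beta-secretase genes, were not higher in adult cortex. Adam10, the main alpha-secretase of neurons (chromosome 9, 70678997 to 70780229, plus strand), had 104, 83.7 and 81.9 CPM in adult samples, against 119, 110, 107 and 125 CPM in embryonic samples. The adult samples were all below the embryonic ones in CPM, with adult replicate 1 close to embryonic replicate 3, while on the deposited scale the groups overlapped. The difference was -0.28 (SE 0.09, adjusted p = 0.0167 in limma, ratio of means 0.781). This call was lost without adult replicate 2 (adjusted p = 0.0624), without adult replicate 3 (adjusted p = 0.0858) and without embryonic replicate 1 (adjusted p = 0.0516), and in 5 of 13 alternative settings in all. Over these settings limma's adjusted p ran from 0.000534 to 0.0858, with the difference below 0 in each.

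Bace1, the beta-secretase (chromosome 9, 45838580 to 45864399, plus strand), had 113, 128 and 110 CPM in adult samples, against 119, 125, 116 and 126 CPM in embryonic samples. The groups overlapped and no difference was called (0.03, SE 0.08, adjusted p = 0.732 in limma), and the sign of this small difference turned to -0.15 when samples were centred on their medians. With App higher and Bace1 not, App had 16.6 ± 0.833 reads per Bace1 read in adult and 3.84 ± 0.255 in embryonic cortex (exact permutation p = 0.0286, adjusted over the ratios 0.0357). The App to Bace1 ratio follows from the results of the single genes and adds no separate evidence. Bace1 had 1.32 ± 0.228 reads per Adam10 read in adult and 1.05 ± 0.0626 in embryonic cortex. That ratio was spread widely among adult samples and overlapped the embryonic ones (exact permutation p = 0.0857, and the same after adjustment over the ratios).

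The gamma-secretase genes split. Psen2, which encodes a presenilin, the catalytic subunit (chromosome 1, 180227004 to 180263438, minus strand), had 13.8, 19.5 and 17.8 CPM in adult samples, against 10.2, 11.2, 12.1 and 10.7 CPM in embryonic samples. It rose by 0.66 (SE 0.12, adjusted p = 0.000253 in limma, ratio of means 1.54), with adult replicate 1 only slightly above the highest embryonic sample. Ncstn, which encodes nicastrin, the subunit that receives the substrate (chromosome 1, 172066013 to 172082795, minus strand), had 51.7, 49.9 and 48.9 CPM in adult samples, against 63.8, 67.5, 65.6 and 65.1 CPM in embryonic samples. It was lower in every adult sample, with a difference of -0.29 (SE 0.07, adjusted p = 0.00224 in limma, ratio of means 0.766).

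Other subunits moved by similarly small amounts. Of the APH1 genes, which scaffold the complex, Aph1b was lower in adult (29.98 ± 2.90 against 54.4 ± 4.11 CPM, difference -0.76, adjusted p = 3.60e-06 in limma). Aph1c was higher (12.3 ± 1.79 against 9.38 ± 0.501 CPM, difference 0.44, adjusted p = 0.00309), a call lost when samples were centred on their medians (adjusted p = 0.0588). Aph1b and Aph1c are close copies, so their reads may not be assigned with certainty. Of the 6 gamma-secretase genes listed, 3 were higher, 3 lower and none was uncalled, with a median difference of 0.05 beside 0.03 over all genes tested. After centring on the sample medians 1 was higher and 3 lower.

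Apbb1, which encodes Fe65, an adaptor that binds the inner tail of APP (chromosome 7, 105558483 to 105581653, minus strand), had 367, 415 and 366 CPM in adult samples, against 171, 176, 188 and 154 CPM in embryonic samples. The groups lay far apart, with a ratio of 2.22 (difference 1.23, SE 0.09, adjusted p = 1.40e-08 in limma). Aplp1 and Apbb1 therefore differed by the same amount to 2 decimals on the deposited scale. In the 13 alternative settings App, Aplp1, Aplp2, Psen2, Ncstn and Apbb1 each kept its direction and its call.

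The tissue around these genes changed as well, and the samples were checked with marker lists. Neuronal markers were abundant at both stages, with a summed level of 5990 to 6237 CPM in adult and 3232 to 3679 CPM in embryonic samples (4 of 6 markers higher, 2 lower). Astrocyte markers summed to 4755 to 5790 CPM in adult and 210 to 221 CPM in embryonic samples, and oligodendrocyte markers to 3862 to 6915 CPM in adult and 48.7 to 51.7 CPM in embryonic samples, with all 6 markers of each list higher in adult. Microglial markers summed to 284 to 292 CPM in adult and 24.8 to 29.5 CPM in embryonic samples (6 of 6 higher), and progenitor markers to 64.7 to 121 CPM in adult and 889 to 992 CPM in embryonic samples (5 of 6 lower). Choroid plexus markers summed to 586 to 722 CPM in adult and 0.922 to 2.12 CPM in embryonic samples (5 of 5 higher), and striatal markers to 654 to 760 CPM in adult and 72.6 to 80.0 CPM in embryonic samples (5 of 5 higher). Meningeal markers (5 of 5 higher) and endothelial markers (4 of 5 higher) moved the same way, and erythroid markers summed to 196 to 500 CPM in adult and 535 to 805 CPM in embryonic samples. No marker was at 0 in all samples of a stage. These lists differed between the stages together with the genes described here, and their part in the results was not tested. In such bulk samples fewer cells of a type and less RNA per cell cannot be told apart. Annotated genes on the opposite strand overlap App (Gm10791, Gm49226, Gm49227, Gm49228 and Gm27295), Bace1 (Gm16536, Gm49338 and Rnf214), Psen2 (Gm31728) and Ncstn (Copa). Since no source used here gives the strand setting of the counting, their reads cannot be told apart where they overlap.

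In 7 lists of the wider pathway, 60 genes were tested, 5 of the 8 genes among them, and 30 were higher, 14 lower and 16 not called. Outside the 8 genes, 28 of 55 were higher, 12 lower and 15 not called. The total of 40 called is again close to the background of 69.7% called. The split by direction is not, since more of these genes were higher than lower, while 35.8% of all genes tested were higher and 33.9% lower. The share called lay below this background for APP sorting and endocytosis and for the intracellular adaptors, and above it in the other lists. The lists also differed in which way their genes went. Their counts were not tested against the background.

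Genes of amyloid degradation and clearance were mostly higher in adult cortex: 8 of 9 rose, none fell and Thop1, a peptidase, was not called (difference -0.04). The median difference was 1.34. Clu, which encodes the chaperone clusterin, averaged 762 ± 23.5 CPM in adult and 26.3 ± 1.39 CPM in embryonic cortex (difference 4.90, adjusted p = 1.91e-14 in limma). Apoe, the lipid carrier made mainly by astrocytes, averaged 1424 ± 162 CPM in adult and 50.01 ± 6.43 CPM in embryonic cortex (difference 4.90, adjusted p = 2.45e-13). The amyloid-degrading peptidases rose by less: Mme, neprilysin, averaged 10.7 ± 1.32 CPM in adult and 4.14 ± 0.477 CPM in embryonic cortex (difference 1.34), and Ide, insulin-degrading enzyme, 42.4 ± 3.26 CPM in adult and 34.8 ± 1.31 CPM in embryonic cortex (difference 0.36). Ide and Ece2 lost their calls when samples were centred on their medians, where 6 genes were higher and Thop1 lower (difference -0.23, adjusted p = 0.0458 in limma).

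Modulators of the secretases rose in 5 of 7 cases, with 1 lower and a median difference of 1.04. Itm2c, of the BRI family of proteins that bind APP, averaged 750.4 CPM in adult and 52.7 CPM in embryonic cortex, with SDs of 48.9 and 5.74 CPM (difference 3.90, adjusted p = 4.84e-13 in limma). Timp3, an inhibitor of metalloproteases, averaged 72.5 ± 13.7 CPM in adult and 11.5 ± 0.921 CPM in embryonic cortex (difference 2.64, adjusted p = 1.05e-10). Gsap, listed under an older symbol, was the member that fell, at 4.37 ± 0.336 CPM in adult and 12.8 ± 0.685 CPM in embryonic cortex (difference -1.35), and Reck was not called (difference 0.29). Without adult replicate 2, Reck was called higher (difference 0.48, adjusted p = 0.00356 in limma).

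Among 14 genes of APP sorting and endocytosis, 6 were higher, 1 lower and 7 not called, with a median difference of 0.21. Sorl1, the sorting receptor that keeps APP out of endosomes, averaged 418 ± 36.0 CPM in adult and 153 ± 15.1 CPM in embryonic cortex (difference 1.53, adjusted p = 2.36e-09 in limma), and Lrp1b, a receptor of the LDL family, 59.8 ± 2.51 CPM in adult and 17.6 ± 2.94 CPM in embryonic cortex (difference 1.81, adjusted p = 3.32e-09). Its relative Lrp1 did not pass, at 692 ± 48.3 CPM in adult and 739.8 ± 74.7 CPM in embryonic cortex (difference -0.01, adjusted p = 0.948). Vps35, Snx27, Cd2ap, Gga1, Gga3 and Rtn4 also did not pass, with differences from -0.22 for Cd2ap to 0.21 for Vps35 and Rtn4. Vps35 was called higher without adult replicate 3 (adjusted p = 0.0485) and without embryonic replicate 4 (0.0124), Rtn4 without adult replicate 2 (0.0415) and without embryonic replicate 4 (0.0171), and Cd2ap lower without adult replicate 1 (0.0330). Picalm, an adaptor of clathrin coats, was the gene that fell (131 ± 10.1 CPM in adult, 193 ± 20.9 CPM in embryonic cortex, difference -0.47). After centring on the sample medians, Cd2ap and Gga1 were lower too.

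Of 12 intracellular adaptors, 5 were higher, 2 lower and 5 not called. The higher call of Apba3 (difference 0.29, adjusted p = 0.0299 in limma) was lost in several alternative settings. Among them were centring on the sample medians (adjusted p = 0.371) and leaving out adult replicate 2 (0.172). Numb, an endocytic adaptor, averaged 47.8 ± 3.42 CPM in adult and 18.1 ± 1.16 CPM in embryonic cortex (difference 1.44, adjusted p = 4.42e-09 in limma). Dab1, the adaptor of reelin signalling, averaged 98.6 ± 15.3 CPM in adult and 275 ± 12.02 CPM in embryonic cortex (difference -1.40, adjusted p = 1.08e-08). Unlike Apbb1, its relatives Apbb2 and Apbb3 were not called (differences -0.22 and 0.15, adjusted p = 0.0519 and 0.134), and neither were Apba2, Appbp2 and Kat5 (differences 0.13, -0.02 and -0.18). Apbb2 and Kat5 were lower under each of the 3 other scalings. The difference between Apbb1 and its relatives was not tested.

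The other secretases and the other substrates complete the lists. Adam9 averaged 68.9 ± 4.38 CPM in adult and 30.5 ± 1.79 CPM in embryonic cortex (difference 1.24, adjusted p = 6.80e-09 in limma), and Bace2, the homologue of Bace1, 3.32 ± 0.731 CPM in adult and 0.316 ± 0.109 CPM in embryonic cortex (difference 2.69, adjusted p = 1.79e-07). Bace2 had only 4, 10, 5 and 8 reads in the embryonic samples. At such low counts the deposited values do not follow log2 closely, and its CPM ratio was 10.5. Adam17, another alpha-secretase, was lower, at 19.7 ± 2.81 CPM in adult and 28.8 ± 0.880 CPM in embryonic cortex (difference -0.45, adjusted p = 0.00107). Of 7 other substrates of these enzymes, 5 were lower in adult and 1 higher, with a median difference of -1.003. Chl1, an adhesion protein of growing axons and a BACE1 substrate, averaged 169 ± 18.6 CPM in adult and 692 ± 103 CPM in embryonic cortex (difference -1.93, adjusted p = 1.49e-09). Scn2b, a sodium channel subunit that BACE1 also cuts, averaged 385 ± 14.2 CPM in adult and 15.8 ± 2.11 CPM in embryonic cortex (difference 4.63, adjusted p = 1.86e-13), and Erbb4 was not called (difference -0.03).

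**Figure D2:**
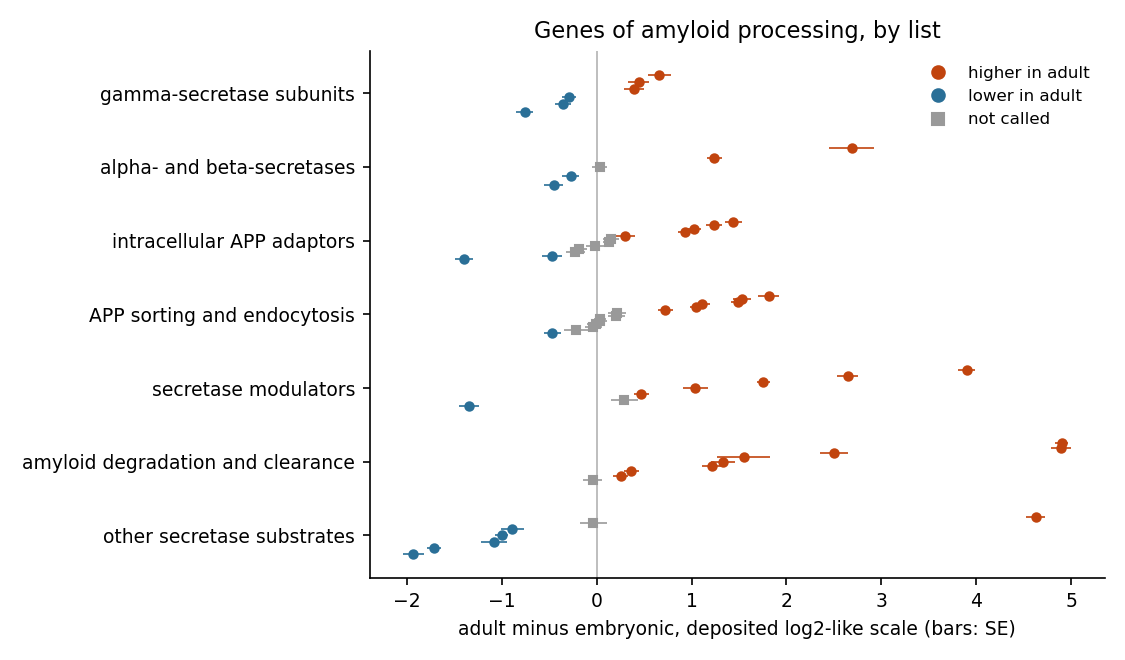
Difference between adult and embryonic cortex on the deposited log2-like scale for each gene of the 7 pathway lists, with SE as bars. Points right of 0 were higher in adult. Clearance genes and secretase modulators lie mostly to the right, reaching 4.90 for Clu and Apoe, the gamma-secretase subunits lie within 1 of 0, and most other substrates lie to the left.

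The genes whose profile over the 7 samples was most like those of App, Aplp2 and Bace1 were found by the root mean square distance between profiles centred on their own means, over all genes tested outside the set. Nearest to App were the kinase gene Mast3 (distance 0.05), Rassf5 (0.06) and the G protein subunit gene Gnb5 (0.06). Nearest to Aplp2 were Slc2a3, the glucose transporter of neurons (0.03), the circadian gene Cry2 (0.03) and Atp6v1b2, a subunit of the vacuolar proton pump (0.04). Nearest to Bace1 were Scand3, 4833439L19Rik and Rab40c (0.04, 0.05 and 0.05), whose own differences lay between -0.003 and 0.10. With 2 groups of samples such likeness rests largely on the difference between the stages.

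The exon table allows the use of single exons to be compared between the stages. Each deposited exon value stands for a whole number, the gene's reads divided by the exon's reads, so a share of the gene's reads was computed as 100 divided by that number. A higher deposited value means a smaller share, and the exon differences below carry that sign. A pair of tests is given for each exon. diffSplice in limma compares an exon with the rest of its gene. limma on the exon by itself uses that exon's spread, moderated towards a mean-variance trend over all exons. In simulated data with unequal spread among exons, diffSplice made more false calls than its threshold allows, so an exon is described here as changed only where both passed. Of the 102 exons diffSplice called 7 (background 4.86% of 86181 exons), limma on each exon by itself called 1 (background 1.98%), and the shares did not overlap between the stages for 14 (background 12.2%). Psen2 has no exon rows here and Bace1 has 2.

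In App the profile of exon shares had a deep trough at the alternative exons 7 and 8 at both stages. Of its 17 listed exons none was called by diffSplice (3 had an unadjusted p below 0.05) and none by limma on each exon by itself (2 had an unadjusted p below 0.05). App exon 7, the Kunitz exon shown above (chromosome 16, start 85043821 in mm9), held 0.592%, 0.606% and 0.599% of App reads in adult samples, against 0.962%, 0.971%, 0.820% and 0.870% in embryonic samples. All adult shares lay below all embryonic shares, and they rest on 251 to 291 reads per adult sample and 80 to 102 reads per embryonic sample. The means were 0.599 ± 0.00717% in adult and 0.905 ± 0.0732% in embryonic cortex, a ratio of 0.661. On the deposited values neither test passed (diffSplice difference 0.73, SE 0.30, adjusted p = 0.183; by itself adjusted p = 0.187). It passed in diffSplice on the log2 of the share (adjusted p = 0.00317, where 5.22% of all exons and 6 exons of the 8 genes were called). It also passed on the deposited values in limma on the exon by itself without a mean-variance trend (adjusted p = 0.0385, where 1.95% of all exons and 2 exons of the 8 genes were called). That alternative was chosen after seeing the data. The call of this exon thus depends on the scale and on how the variance is modelled.

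App exon 8, the OX2 exon (start 85040496), held 0.160%, 0.175% and 0.202% in adult samples, against 0.204%, 0.305%, 0.223% and 0.142% in embryonic samples, from 68 to 88 and 14 to 32 reads. The groups overlapped and neither test passed (adjusted p = 0.984 in diffSplice and 0.812 by itself). Set against the reads per base of the constant exons 6 and 9, exon 7 reached 4.35 ± 0.741% in adult and 6.69 ± 0.890% in embryonic cortex (exact permutation p = 0.0571, adjusted over 6 exons 0.171), and exon 8 reached 3.80 ± 0.430% in adult and 4.73 ± 1.51% in embryonic cortex (exact permutation p = 0.4). Both exons were thus at a few percent of their neighbours at either stage. Exon 6 alone held 22.2 ± 4.81% of reads in adult and 21.2% in embryonic cortex, which the small whole numbers behind it give only coarsely.

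App exon 15 (start 84971653), whose omission creates an attachment site for chondroitin sulfate, was near the level of its neighbours at both stages. It held 2.70%, 2.86% and 2.22% in adult samples, against 3.33%, 2.04%, 2.08% and 2.33% in embryonic samples, with embryonic replicate 1 above all others. Per base it reached 106 ± 15.5% of exons 13 and 16 in adult and 96.2 ± 21.1% in embryonic cortex (exact permutation p = 0.486). Neither test passed (adjusted p = 0.517 in diffSplice and 0.874 by itself), though diffSplice passed without embryonic replicate 1 (adjusted p = 0.0473).

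**Figure D3:**
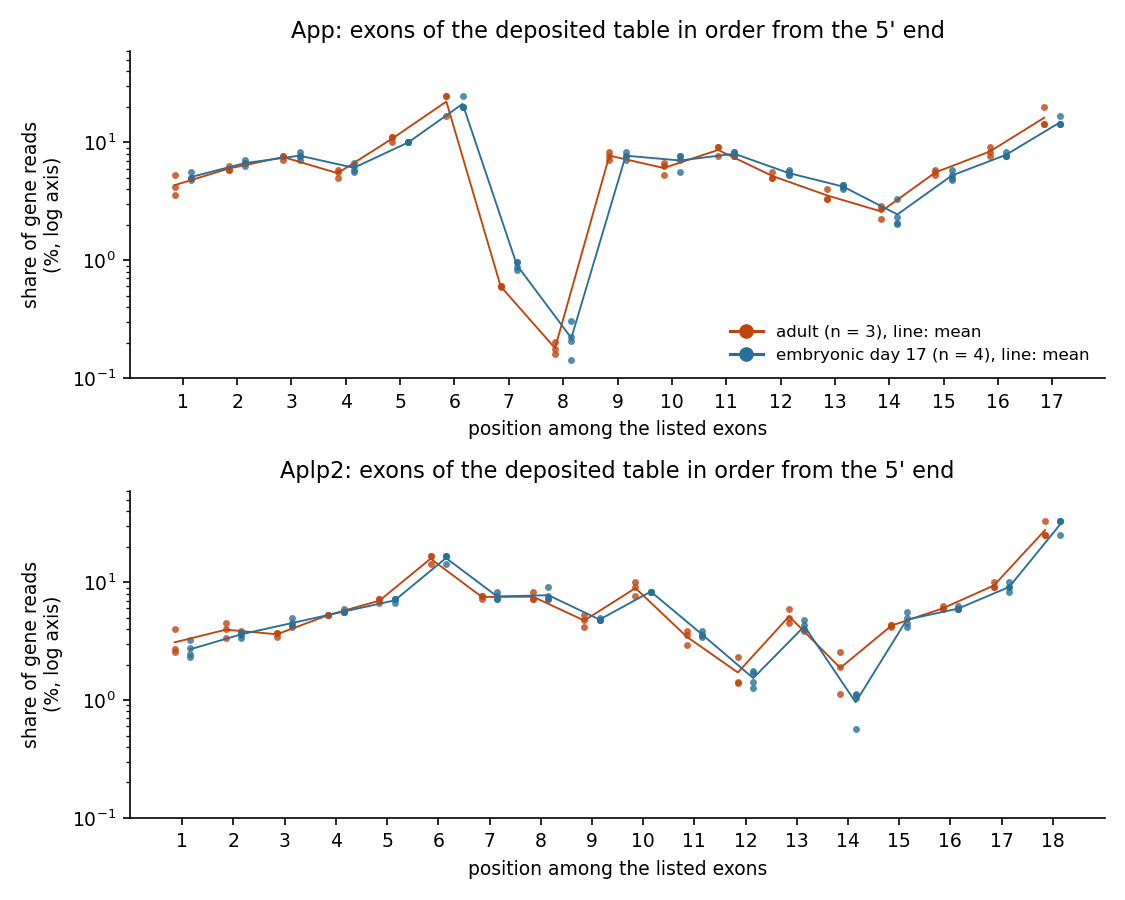
Share of App reads (upper panel) and of Aplp2 reads (lower panel) in each listed exon, in percent on a log axis, ordered from the 5′ end, with adult samples left of embryonic samples at each position and lines joining the group means. In App the shares drop to 0.599% in adult and 0.905% in embryonic cortex at exon 7 and lower still at exon 8, while Aplp2 shows no such trough at its Kunitz exon (position 7).

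In Aplp2 the Kunitz exon stood at 63.3% to 74.5% of its neighbours per base over all samples. This measure is not the fraction of transcripts that include an exon, since some alternative exons here stood above their neighbours. Aplp2 exon 7 (chromosome 9, start 30975146 in mm9) held 7.69%, 7.14% and 7.69% of Aplp2 reads in adult samples, against 7.14%, 7.69%, 8.33% and 7.14% in embryonic samples. The groups overlapped (adjusted p = 0.953 in diffSplice and 0.945 by itself). Per base it stood at 67.2 ± 6.31% of exons 6 and 8 in adult and 66.3 ± 2.40% in embryonic cortex (exact permutation p = 0.8). The 2 Kunitz exons, alike in sequence as shown above, thus stood at different levels within their genes, and the difference between the genes was not tested.

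The 36-base exon of Aplp2 (start 30963775), which by its presence interrupts the chondroitin sulfate site of that protein, held 1.92%, 2.56% and 1.14% in adult samples, against 1.03%, 0.565%, 1.10% and 1.14% in embryonic samples. Adult replicates 1 and 2 were above all embryonic samples, while adult replicate 3 was level with embryonic replicate 4. The means were 1.87 ± 0.715% in adult and 0.958 ± 0.265% in embryonic cortex. diffSplice called it (difference -1.95, SE 0.37, adjusted p = 6.96e-05), limma on the exon by itself did not (adjusted p = 0.281). The diffSplice value was -1.29 without adult replicate 2 (adjusted p = 0.0417). Per base of its neighbours it reached 124 ± 45.3% in adult and 62.9 ± 14.1% in embryonic cortex, with no overlap (exact permutation p = 0.0286, adjusted over 6 exons 0.171). Aplp2 exon 3 (start 30984603) held 3.62 ± 0.147% in adult and 4.51 ± 0.358% in embryonic cortex without overlap. It passed in diffSplice (difference 1.25, adjusted p = 0.0285) but not by itself (adjusted p = 0.217), and its diffSplice call was lost in 9 of 13 alternative settings, among them without adult replicate 1 (adjusted p = 0.0855), without adult replicate 2 (0.117), without embryonic replicate 1 (0.0860), without embryonic replicate 2 (0.0616) and without embryonic replicate 4 (0.143).

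**Figure D4:**
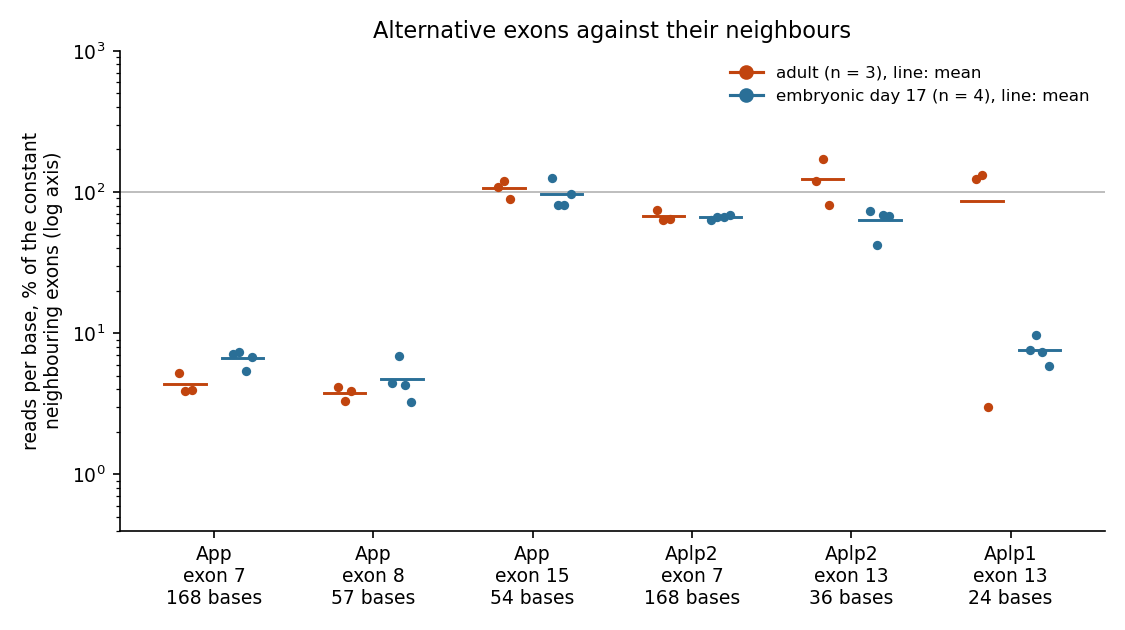
Reads per base of the 6 alternative exons as a percentage of their constant neighbours, in every sample on a log axis, adult left and embryonic right in each pair, with a line at each group mean and a grey line at 100%. App exons 7 and 8 lie under 10% in every sample, the Kunitz exon of Aplp2 lies near 67.2% in adult and 66.3% in embryonic cortex, and 1 adult sample of Aplp1 exon 13 lies below the embryonic samples while the other two lie above them.

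Aplp1 exon 13 (chromosome 7, start 31221198 in mm9), the 24-base exon shown above, split the adult samples. It held 1.49%, 1.61% and 0.0259% of Aplp1 reads in adult replicates 1, 2 and 3, against 0.0668%, 0.0829%, 0.0628% and 0.0506% in embryonic samples. Adult replicates 1 and 2 had at least 360 reads in it, while adult replicate 3 had 6 reads, as few as the 5 to 9 reads of the embryonic samples. diffSplice called it (difference -3.13, SE 0.57, adjusted p = 4.14e-05), limma on the exon by itself did not (adjusted p = 0.413). The diffSplice value was -5.29 without adult replicate 3 (adjusted p = 4.56e-25), -2.10 without adult replicate 1 (adjusted p = 0.0483) and -1.9995 without adult replicate 2 (adjusted p = 0.0512). Over 47278 exons of genes with at least 1000 reads in each sample, a share at least 4-fold below both other adult samples was found for 77 exons in adult replicate 3, 42 in adult replicate 1 and 48 in adult replicate 2. A share at least 4-fold above both others was found for 16 exons in adult replicate 3, 27 in adult replicate 1 and 15 in adult replicate 2.

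In Apbb1 an exon starting at 112717133 on chromosome 7 (mm9), annotated with lengths of 13, 40 or 159 bases in coding transcripts, was the exon that passed both tests. It held 0.369%, 0.225% and 0.337% of Apbb1 reads in adult samples, against 0.0318%, 0.0756%, 0.0752% and 0.0299% in embryonic samples. All adult shares were above all embryonic ones, although they rest on only 31, 22 and 28 reads in adult and 1, 3, 3 and 1 reads in embryonic samples. The difference was -2.44 in diffSplice (SE 0.42, adjusted p = 1.02e-05) and limma on the exon by itself gave an adjusted p = 0.0418. It passed in each of the 13 alternative settings, in which samples were left out for diffSplice alone. The listed exon at 112729649 held 5.64 ± 0.896% in adult and 7.93 ± 0.957% in embryonic cortex without overlap (adjusted p = 0.00710 in diffSplice, 0.188 by itself). This call was lost in 5 of 13 alternative settings, among them without adult replicate 1 (adjusted p = 0.0578) and without embryonic replicate 1 (0.0598).

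In Adam10 the first listed exon (chromosome 9, start 70526808 in mm9) held 6.25%, 7.69% and 5.56% of reads in adult samples, against 5%, 5.26%, 4% and 3.45% in embryonic samples. The groups did not overlap, with a smaller gap between adult replicate 3 and embryonic replicate 2 than the spread within either group. It passed in diffSplice (difference -1.91, SE 0.40, adjusted p = 0.000548) but not by itself (adjusted p = 0.264).

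**Figure D5:**
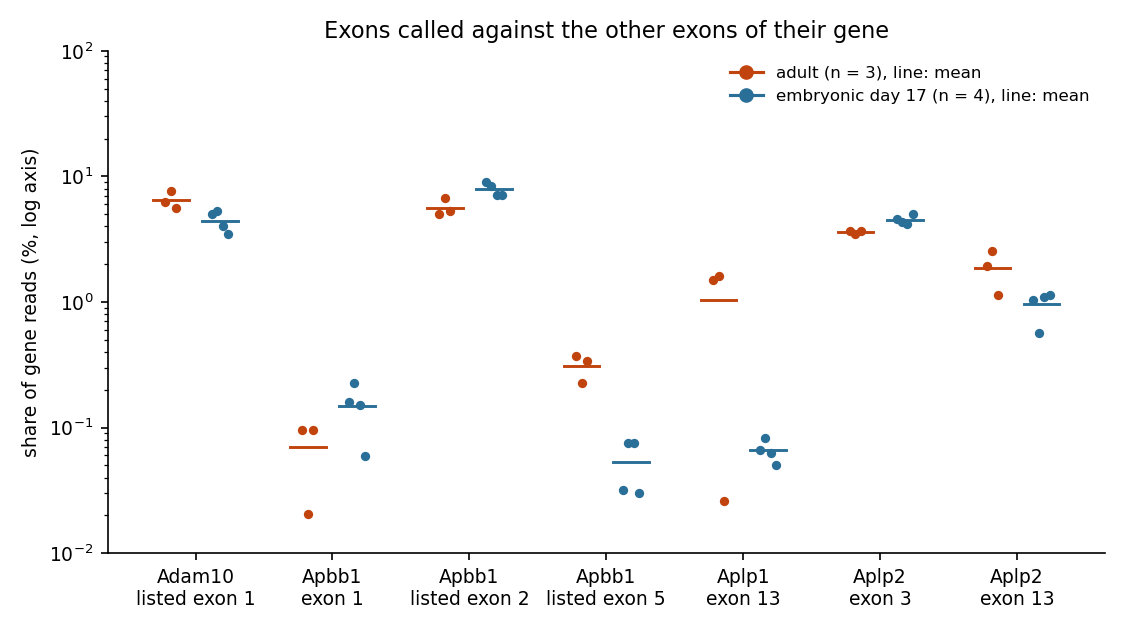
Share of the gene's reads, in percent on a log axis, for the 7 exons called by diffSplice, with adult samples on the left and embryonic samples on the right of each pair and a line at each group mean. The listed exon 5 of Apbb1 (start 112717133) is the exon that passed both tests, and adult replicate 3 of Aplp1 exon 13 lies at 0.0259%, below the embryonic samples.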

How the data were processed

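Trizol was used to extract RNA and an Illumina kit to make mRNA libraries, per the labels' protocols. The submitters' processing notes name build mm9 and, without role, the tools HTSeq 0.5.3p3, TopHat 1.0.13, SAMtools 0.1.7a, Bowtie 0.12.7.0 and CASAVA 1.7.1. The deposited gene values are variance-stabilized by the authors on a log2-like scale. The deposited exon values are a variance-stabilized score headed as 1 over a ratio, per the file headers, and the comparison planned for exon expression is therefore one of exon shares. All 14 sample columns were used.

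Each gene column is 1 smooth function of whole reads, so the reads behind it were recovered, with 99.997% of values within 0.1 of a whole number in each sample, and served for CPM and read ratios only. Of the exon values that could reveal it, 96.8% to 97.5% were reached by a whole number of exon reads with the recovered gene reads, and 15.3% to 16.4% after the gene reads were moved. A small whole number gives a coarse share, and a read crossing a junction can count in more than 1 exon. Exons were named by matching the spacing of their mm9 starts to GENCODE M21 on GRCm38 within 3 bases (101 of 102 matched), with no conversion of coordinates.

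The deposited values were tested in limma 3.58.1 (R 4.3.3), using lmFit, eBayes with its trend option and, for exons, diffSplice, two-sided, with Benjamini-Hochberg adjustment over all features tested and a threshold of 0.05. A row was dropped if over 3 of its 7 values equalled the lowest of their columns. The recovery of reads and the gene and exon fits were tested on simulated data. Single read ratios and exon levels were compared by exact permutation over samples. Chi-square divided by its degrees of freedom was 5.15 to 19.2 between samples of 1 stage, more than counting gives. Each sample was taken as 1 replicate, though such spread cannot show that the samples came from separate animals. A gene of the gamma-secretase list is not reported here. The members and the gene lists were chosen with earlier results of these data known. The genes named are the 8 members, from each list the 2 called genes outside the members with the largest difference and each gene not called, and the 3 nearest profiles of App, Aplp2 and Bace1. The exons named are the called and known alternative exons of App and Aplp2 and up to 2 called exons of the other members. Adam17, Mme, Ide, Ece2, Picalm, Gsap and Apba3 were named after their values were seen.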

Additional observations from a re-analysis of the deposited data

Results flagged for a closer look

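Of 21 sets of 4 embryonic values examined for the 8 genes and their named exons, 1 had a sample standing apart. In Aplp2 the gene value of embryonic replicate 3, with 206.1 CPM against 185, 188 and 188 CPM in embryonic replicates 1, 2 and 4, was the highest, and its gap to the next sample was 0.8292 of the range of the 4 samples, just past the critical value of Dixon's test at 95%. Chance alone gives about 1 such set in 20.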

How the results depend on the processing

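For genes, 13 alternatives were run: no filter on low values, centring on sample medians, no mean-variance trend, a replicate block, leaving out each of the 7 samples, and voom on the recovered reads with library-size or upper-quartile scaling. App, Aplp1, Aplp2, Psen2, Ncstn and Apbb1 kept direction and call in all of them, Bace1 was called in none, and Adam10 lost its call in 5, so that 6 or 7 of the 8 genes were called throughout. Without one sample each, 7705 to 8042 genes were higher and 7339 to 7559 lower in adult, and 42 to 46 of the 60 pathway genes were called. Centring moved the median of all genes by -0.18 and the share of calls higher in adult to 43.6%, against 51.4%.

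Counts of exon calls depended on the test and on single samples. diffSplice called 4185 exons, and limma on each exon by itself called 1711, or 1689 without a trend (an alternative chosen after seeing the data), where 1 and 2 exons of the 8 genes were called in place of 7. Leaving out 1 sample gave 2757 to 6799 exons in all and 5 to 19 in the 8 genes, the lowest total without adult replicate 2 and both highest counts without adult replicate 3. The cause was not tested. The separate alternative without a trend could not be applied to diffSplice, which was fitted without one.

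Whether the replicate numbers pair the samples was not settled. Same-numbered adult and embryonic samples correlated in their deviations at 0.0709, 0.133 and 0.140 for replicates 1, 2 and 3. Adult replicates 2 and 3 correlated best with the embryonic sample of their own number, while adult replicate 1 correlated best with embryonic replicate 4 (0.303). The main fit took the samples as unpaired. With the replicate block, 8006 genes were higher and 7549 lower, 4001 exons were called, 7 of the 8 genes were called and 6 of their exons. Of the pathway genes 48 were called, in place of 44, with Vps35 (adjusted p = 0.00431) and Rtn4 (0.00598) higher and Apbb2 (0.0475) and Kat5 (0.0461) lower. Depth limits the exons with few reads, such as those of Apbb1, and the small whole numbers behind large exons make their shares coarse.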

Other observations

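Further exons of the processing genes, chosen after their values were seen, are given as values. Ncstn exon 13 held 4.79 ± 0.458% of Ncstn reads in adult and 3.69 ± 0.350% in embryonic cortex (adjusted p = 0.266 in diffSplice and 0.245 by itself). Adam10 exon 9 held 5.50 ± 0.659% in adult and 7.49 ± 0.881% in embryonic cortex (adjusted p = 0.0652 in diffSplice and 0.217 by itself), the opposite direction to the first listed exon of that gene. Apbb1 exon 3 held 7.56 ± 0.841% in adult and 5.72 ± 0.189% in embryonic cortex (adjusted p = 0.262 in diffSplice and 0.179 by itself). The smaller of the 2 listed Bace1 exons held 3.88 ± 0.839% in adult and 2.57 ± 0.519% in embryonic cortex, with overlap (adjusted p = 0.190 in diffSplice and 0.262 by itself). The first-numbered Apbb1 exon, at 112729997 on chromosome 7 (mm9), held 0.0706 ± 0.0434% in adult and 0.149 ± 0.0685% in embryonic cortex, from 2 to 9 reads in the samples where reads could be derived (adjusted p = 0.0306 in diffSplice and 0.503 by itself). Its diffSplice call was lost without adult replicate 2 (adjusted p = 0.652), without embryonic replicate 1 (0.104), without embryonic replicate 2 (0.201) and without embryonic replicate 3 (0.126).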
